A study of Capra hircus with 6 samples.

Results

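Aminoacyl-tRNA synthetases are the enzymes that join each amino acid to its tRNA, and the genes described here are those of the cytosolic and the mitochondrial synthetases together with the glutaminyl-tRNA amidotransferase of mitochondria. The measurement was ATAC-seq, a method that reads out open chromatin through cuts by the Tn5 transposase in nucleosome-free DNA, on mammary epithelial cells of the goat. The groups were 3 libraries from the lactation period and 3 from the dry period, the pause in milking between lactations. The labels give no genotype, breed, age or other treatment, and leave it unsaid whether 1 goat or several gave the libraries of a period. The authors' deposited table lists 30714 regions that differed between the periods at a p under 0.001, each with a fold change, a p-value and a false discovery rate (FDR), and holds no value per library. A region was taken when its centre lay inside 1 of 39 named genes or within 50000 bp of an end of one, whatever its FDR. This gave 179 distinct regions of the 30714, at 37 of the 39 genes. The genes comprised 20 cytosolic and 19 mitochondrial members, and all 39 matched a protein-coding gene of the RefSeq table used. The regions were chosen by being listed at all, that is, by their deposited p in this comparison, so the values below are a description and no test of the members was made.

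Region names fall in 2 sets of 22884 (set 1) and 7830 (set 2), and every fold change lies above 1 in both. A set is read here as the regions with more signal in 1 period than in the other. Neither the labels nor the table say which set stands for lactation and which for the dry period, so directions are given by set. In the table as a whole an FDR under 0.05 was reached up to a p of 6.21e-05 in set 1 and of 5.63e-06 in set 2. Set 2 regions therefore needed a lower p to pass. The depth of the libraries is unknown, and the table does not give the tissue's marker genes as levels, so the labelled cell type could not be checked.

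Every protein is built from charged tRNAs, so synthetases are needed for translation in all cells, including the secretory cells that make milk protein. Cytosolic and mitochondrial protein synthesis mostly use separate synthetases encoded by separate nuclear genes, while *GARS* and *KARS*, for glycine and lysine, serve both compartments and were counted here as cytosolic. In mammals 8 of the cytosolic members (*EPRS*, *IARS*, *LARS*, *QARS*, *MARS*, *RARS*, *KARS* and *DARS*) are held in 1 large multi-synthetase complex. Mitochondria have no glutaminyl-tRNA synthetase of their own: *EARS2* first attaches glutamate, and the amidotransferase made of *QRSL1*, *GATB* and *GATC* converts it to glutamine on the tRNA.

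Most regions at these genes belonged to set 1, and cytosolic and mitochondrial members had like numbers of them. Of the 179 regions, 152 were in set 1 and 27 in set 2 (set 2 share 15.1%, with a Wilson interval at 95% of 10.6% to 21.1% that covers counting error only). Over all 30714 listed regions the set 2 share was 25.5%, and over those within 50000 bp of any protein-coding gene it was 23.4%. The members' share depended on the window: it was 23.5% with regions inside the genes or within 3000 bp of an end, and 27.5%, above the share of the whole table, with only regions for which a member is the nearest gene. At an FDR under 0.05 there were 55 regions at the members, 54 in set 1 and 1 in set 2, or 30.7% of the 179, against 27.8% of all listed regions and 28.1% of those within 50000 bp of any protein-coding gene. The share passing was thus near the background. Set 1 also led among passing regions of the whole table, with 7820 against 723 in set 2. By set, 35.5% of member regions passed in set 1 and 3.70% in set 2, against 34.2% and 9.23% in the whole table. A listed region lay at 94.9% of the members, against 79.7% of 19063 protein-coding genes, and a region under the FDR limit at 69.2%, against 51.4% of all genes. In set 1 alone, 26 of the 39 members had such a region, against 48.9% of all genes. Longer genes have wider windows under this rule. The median gene length was 21648 bp for members and 17760 bp for all protein-coding genes, and its bearing on these shares was not tested. The 2 members without a listed region were *LARS* and *NARS*, the cytosolic leucyl- and asparaginyl-tRNA synthetases.

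Between the compartments, the counts under the FDR limit were close. Among cytosolic members 14 of 20 had such a region (70.0%), and among mitochondrial members 13 of 19 (68.4%). Cytosolic members had 99 distinct listed regions, 83 in set 1 and 16 in set 2, with a median fold change of 2.28 per the authors' deposited table (interquartile range 1.86 to 3.26). Mitochondrial members had 88, 77 in set 1 and 11 in set 2, with a median fold change of 2.48 per the authors' deposited table (1.97 to 3.61). Over all listed regions the median was 2.63 (1.96 to 3.69). The interquartile ranges of the compartments overlapped. Without *QRSL1*, *GATB* and *GATC* the mitochondrial median was 2.26, below the cytosolic one, and with a distance of 100000 bp it was 2.25 against an unchanged cytosolic 2.28, so both settings turned the order of the compartments round. Both counts include 8 regions that lie at a cytosolic and a mitochondrial member at once.

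**Figure D1:**
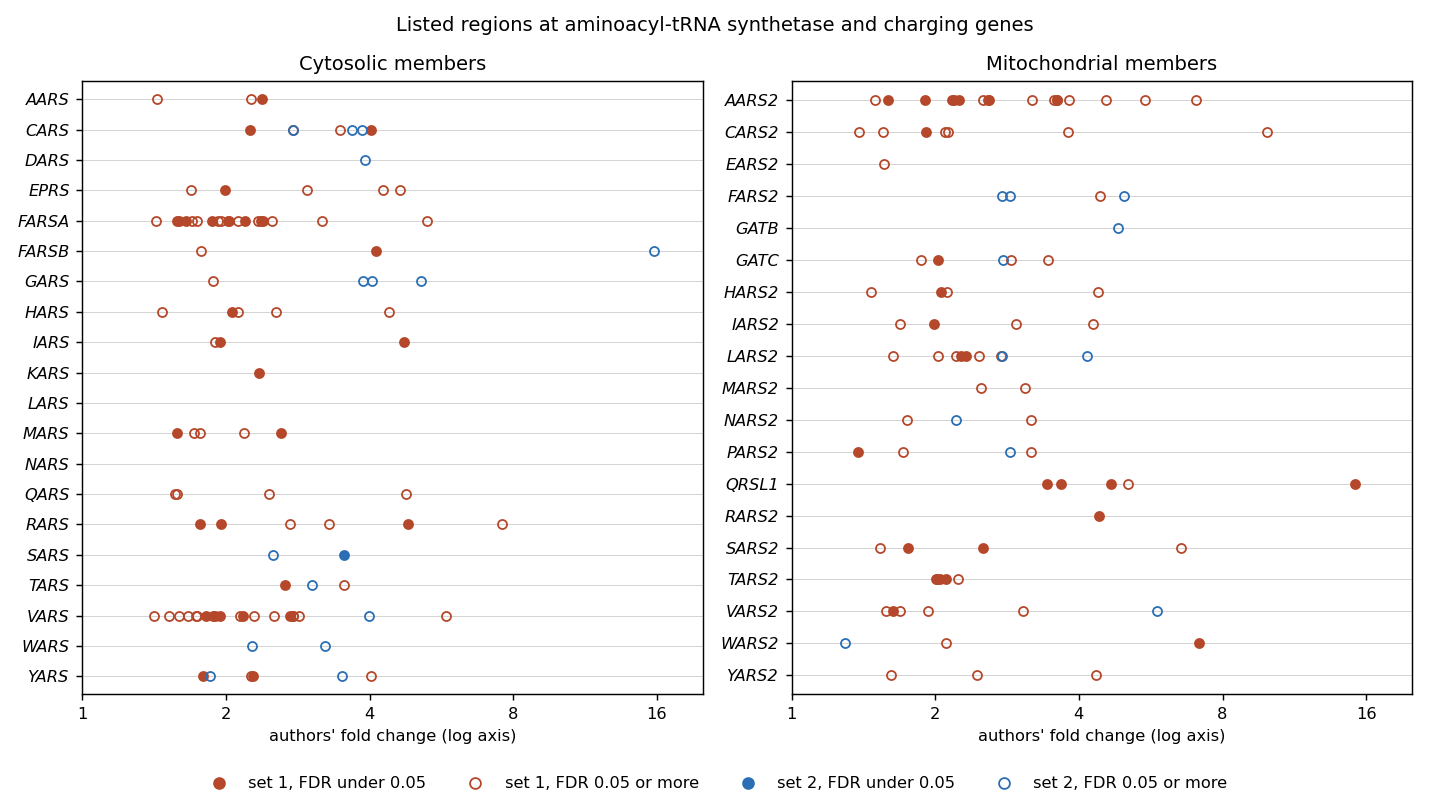
Fold change (log axis, authors' values) of every listed region at each cytosolic (left) and mitochondrial (right) member. Each point is 1 region, coloured by set and filled where its FDR is under 0.05. *LARS* and *NARS* have no point, *DARS*, *SARS*, *WARS* and *GATB* have only set 2 points, and the rightmost filled point is the *QRSL1* region at 15.2.

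The region with the lowest p of all members lay at *QRSL1*, the catalytic subunit of the amidotransferase, on chromosome 9 at 30577801 to 30579000. Its fold change was 15.2 per the authors' deposited table (set 1, p = 4.87e-34, FDR = 3.21e-27). By p it was rank 2 of all 30714 listed regions, and by fold change it was rank 12 of the 8543 under the FDR limit. The region is 1200 bp wide against a median of 400 bp for the member regions under that limit, its centre is 526 bp outside the gene, and its last 75 bp reach into it. On that side no other protein-coding gene follows for 259.6 kb, up to *CD24*.

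All 5 regions at *QRSL1* were in set 1, and 4 of them passed the FDR limit. The second lay 676 bp past the opposite end of the gene, on chromosome 9 at 30607701 to 30608000, with a fold change of 3.43 per the authors' deposited table (FDR = 0.0188). That end overlaps by 135 bp with *RTN4IP1*, a gene for a mitochondrial protein, and the region's centre is inside *RTN4IP1*. Farther from the gene, regions 49676 and 32776 bp from an end had fold changes of 3.66 and 4.67 per the authors' deposited table (FDR = 0.0353 and 0.0468). The remaining *QRSL1* region, 5176 bp from an end, had 5.08 per the authors' deposited table at an FDR of 0.146. Both ends of *QRSL1* thus carried a set 1 region under the limit, and the fold change was much larger at 1 of them.

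The other amidotransferase subunits gave little. *GATC* had 5 regions, of which 1, closer to *COQ5* and 39329 bp from the *GATC* end, passed the FDR limit at a fold change of 2.03 per the authors' deposited table (FDR = 0.0163). *GATB* had a single region, in set 2 and inside the gene, with 4.82 per the authors' deposited table at an FDR of 0.544. *EARS2*, which makes the substrate of the amidotransferase, had 1 set 1 region at 1.56 per the authors' deposited table (FDR = 0.131). Of the 4 genes of this route, only *QRSL1* had a region under the FDR limit within 3000 bp of an end.

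**Figure D2:**
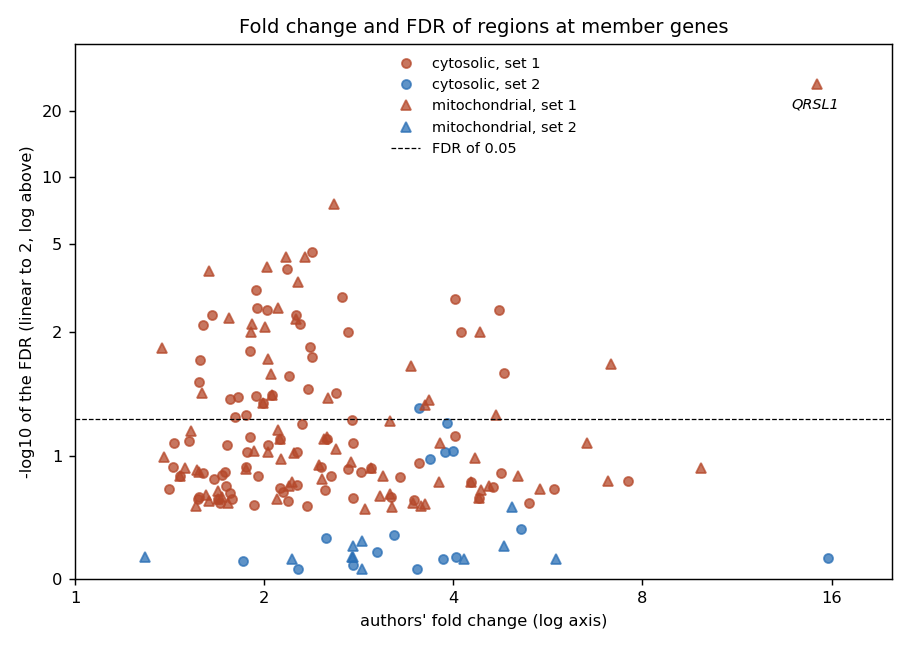
Fold change (log axis) against the negative log10 of the FDR for each region at a cytosolic (circle) or mitochondrial (triangle) member, both from the authors' table. The dashed line is an FDR of 0.05. Set 2 points, apart from *SARS* at an FDR of 0.0410, lie below the line, and the *QRSL1* region stands alone at the upper right.

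Among the 8 synthetases of the multi-synthetase complex, 5 had a region under the FDR limit, all in set 1. These 8 genes had a median length of 46521 bp, against 17760 bp for all protein-coding genes, so their windows were wider. Over all protein-coding genes, 51.4% had a region under the FDR limit in either set and 48.9% had one in set 1. *RARS*, for arginine, had 3 such regions of 6 listed. Its lowest FDR belonged to a region 22264 bp from the gene, at a fold change of 1.95 per the authors' deposited table (FDR = 0.00260). Closer by, 364 bp past an end of *RARS* on chromosome 7 at 30066001 to 30066400, the authors' deposited table gave 1.77 (FDR = 0.0350). *EPRS*, a single protein that charges both glutamate and proline tRNAs, had a region 623 bp past an end on chromosome 16 at 22065201 to 22065400, with 1.99 per the authors' deposited table (FDR = 0.0377). *KARS* had 1 region, 1902 bp past an end and closer to *TERF2IP*, a telomere protein gene, at 2.35 per the authors' deposited table (FDR = 0.0286). These 3 genes were the members of the complex with a passing region within 3000 bp of an end, and their fold changes there were modest, from 1.77 to 2.35.

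*IARS*, for isoleucine, had its lowest FDR 34404 bp away inside *CENPP*, a centromere protein gene, at a fold change of 4.73 per the authors' deposited table (FDR = 0.00305). The region at its own end, 954 bp outside, had 1.90 per the authors' deposited table and an FDR of 0.0707. *MARS*, for methionine, had 2 passing regions, 1 inside the neighbouring *MBD6* (1.58 per the authors' deposited table, FDR = 0.0253) and 1 inside *MARS* itself (2.60, FDR = 0.0308), on chromosome 5 at 55289901 to 55290500. Another *MARS* region is centred inside *DDIT3*, the gene of the stress factor CHOP, 838 bp from the *MARS* end, with 1.71 per the authors' deposited table at an FDR of 0.143. *QARS*, for glutamine, had 4 set 1 regions, all 39420 bp or more from the gene, the lowest FDR being 0.124. *DARS*, for aspartate, differed from these in having a single region, of set 2, within the gene body (chromosome 2, 74805601 to 74806000). Its fold change was 3.90 per the authors' deposited table (p = 6.42e-06, FDR = 0.0545), just past the limit. The p of this *DARS* region is lower than those of the *EPRS*, *KARS* and *MARS* regions that passed. The *DARS* region still did not pass, because the limit on p is lower in set 2 than in set 1.

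*SARS*, which charges serine tRNAs in the cytosol, was the only member with a set 2 region under the FDR limit. That region lies across an end of the gene on chromosome 3 at 86366201 to 86366600, with its centre 125 bp inside, and showed a fold change of 3.53 per the authors' deposited table (p = 4.13e-06, FDR = 0.0410). A second set 2 region follows after a gap of 500 bp, on chromosome 3 at 86367101 to 86367700, with 2.51 per the authors' deposited table but an FDR of 0.463. No set 1 region was listed within 50000 bp of *SARS*. Over all protein-coding genes, 5.06% had a set 2 region under the FDR limit within 50000 bp, so 1 of 39 members is no more than the background.

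*DARS*, *SARS*, *WARS* and *GATB* had regions of set 2 alone. For *WARS*, the tryptophanyl-tRNA synthetase of the cytosol, these were 2 regions, 1 of them inside the gene 1657 bp from an end, at fold changes of 3.22 and 2.27 per the authors' deposited table with FDRs of 0.441 and 0.833. *GARS* had 3 of its 4 regions in set 2, the lowest FDR being 0.0934 at 3.88 per the authors' deposited table, 44980 bp from the gene. By the region of lowest FDR, 5 of the 37 members with a listed region were in set 2, against 14.7% of all genes with one. Members with both sets numbered 13, and 20 had set 1 alone.

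*CARS*, for cysteine, had the sets at opposite ends of the gene. On the set 1 side, a region 1314 bp outside the gene on chromosome 29 at 49595101 to 49595800 showed a fold change of 4.03 per the authors' deposited table (FDR = 0.00152). Another set 1 region 1536 bp inside the same end had 3.46 per the authors' deposited table at an FDR of 0.230. Near the opposite end, 3 set 2 regions fell inside the gene within a span of 3300 bp, with fold changes of 3.67, 3.86 and 2.76 per the authors' deposited table. Their FDRs were 0.106, 0.692 and 0.773, so none passed the limit.

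Among the remaining cytosolic members, the lowest FDR was mostly found away from the gene. *AARS*, for alanine, had 2.38 per the authors' deposited table (FDR = 2.39e-05) in a region closest to *DDX19A* and 40142 bp off. At its own ends *AARS* had 2 regions of 1.44 and 2.26 per the authors' deposited table, with FDRs of 0.0789 and 0.174. *TARS*, for threonine, had 2.66 per the authors' deposited table at 16742 bp (FDR = 0.00128), and *YARS*, for tyrosine, 2.28 at 25392 bp (FDR = 0.00657). *HARS*, for histidine, had 2.05 per the authors' deposited table at 36456 bp, closest to *CD14* (FDR = 0.0324). Phenylalanine is charged by an enzyme of an alpha and a beta subunit, *FARSA* and *FARSB*. *FARSA* had 8 passing regions, the lowest FDR (0.00300) at 2.02 per the authors' deposited table, 6347 bp from the gene and closest to *CALR*, the gene of the chaperone calreticulin. *FARSB* had 1, in the gene body (chromosome 2, 25044101 to 25044500), with 4.12 per the authors' deposited table (FDR = 0.00965).

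The largest fold change of any member region was not one that passed. A set 2 region 46029 bp from *FARSB*, inside *SGPP2*, had 15.8 per the authors' deposited table with an FDR of 0.677. It is 200 bp wide, the narrowest width listed. Of the member regions, 88 were 200 bp wide, with a median fold change of 2.76 per the authors' deposited table, and 5 of them passed the FDR limit (5.68%). The other 91 were wider, with a median of 2.21, and 50 passed (54.9%). Over the whole table the shares passing were 4.87% at 200 bp and 49.5% above it, so member regions followed the table in this.

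*VARS*, *FARSA* and *AARS2* held the most regions. Together they had 56 of the 179 (31.3%), with 20, 19 and 17 each, while the median over all members was 4 and over all protein-coding genes 3. *VARS*, for valine, has 14 other protein-coding genes in its window, the highest number among members. Its lowest FDR (0.000140) came from a region 12965 bp away, closest to *MSH5*, at 2.18 per the authors' deposited table. Inside *VARS*, 1770 bp from an end on chromosome 23 at 22427501 to 22428000, a region had 1.90 per the authors' deposited table (FDR = 0.0142). The mitochondrial gene *VARS2* lies 571 kb from *VARS* on that chromosome, and its lowest FDR was 0.000160 at 1.63 per the authors' deposited table, 28117 bp from the gene. Chromosome 23 carries 4 members, *VARS*, *VARS2*, *AARS2* and *FARS2*, with 47 of the 179 regions, 42 of them in set 1. Across the 39 members the number of regions and of neighbouring genes had a Spearman rho of 0.32, against 0.35 across all protein-coding genes. Windows that overlap share both counts, and genes are not replicates, so these are descriptions.

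**Figure D3:**
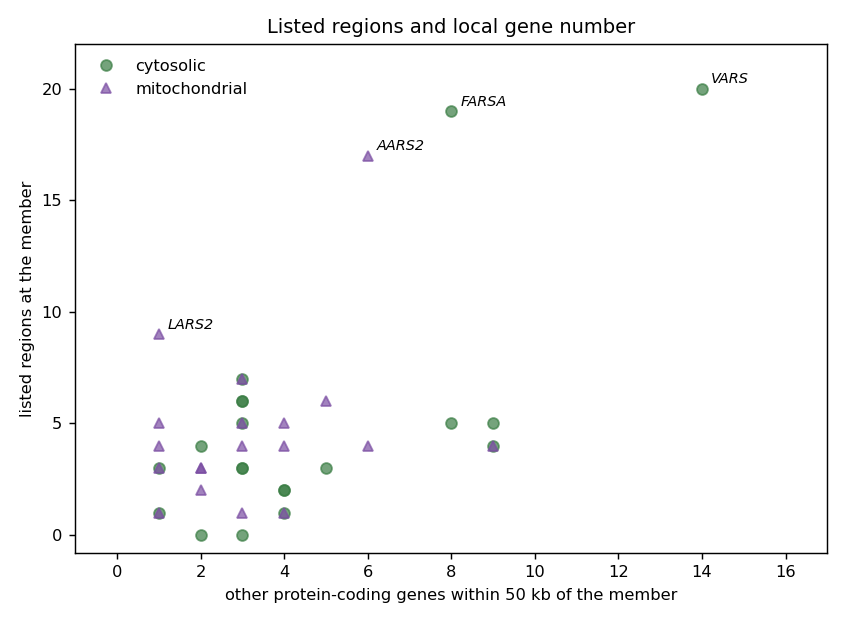
Number of listed regions at each member (vertical axis) against the number of other protein-coding genes within 50 kb of it (horizontal axis), for cytosolic members (circles) and mitochondrial members (triangles). *VARS*, *FARSA* and *AARS2* stand above 15 regions, and *LARS2* has 9 with 1 neighbouring gene.

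Of 16 mitochondrial synthetase genes, 4 (*AARS2*, *WARS2*, *RARS2* and *LARS2*) had a passing region to which no other protein-coding gene was closer. *AARS2* had 6 passing regions, led by one of 2.59 per the authors' deposited table (FDR = 2.72e-08) that is 41865 bp off and closest to *SLC35B2*. Inside *AARS2*, on chromosome 23 at 31045401 to 31045800, the authors' deposited table gave 2.25 (FDR = 0.00509). *WARS2* had the largest passing fold change of a mitochondrial synthetase, 7.14 per the authors' deposited table (FDR = 0.0181), from a region 35320 bp inside this long gene on chromosome 3 at 96488401 to 96488800. *RARS2* had 1 listed region, in the gene body where *SLC35A1* overlaps it (chromosome 9, 49702801 to 49703300), at 4.41 per the authors' deposited table (FDR = 0.00999). *LARS2* had 9 regions, with 2.26 per the authors' deposited table for one 35515 bp outside the gene (FDR = 0.000410) and 2.32 for one closest to *LIMD1* (FDR = 4.18e-05).

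*TARS2* had 4 passing regions with fold changes from 2.01 to 2.11 per the authors' deposited table, each closest to *ADAMTSL4* or *RPRD2*. The lowest FDR among them was 0.000114. *CARS2* had 1.91 per the authors' deposited table (FDR = 0.00641) closest to *ING1*, and *PARS2*, for proline, 1.38 closest to *TTC22* (FDR = 0.0133). *SARS2* had its lowest FDR (0.00472) in a region 35254 bp away, at 1.76 per the authors' deposited table. At the end of *SARS2* itself, 13 bp inside, a 200 bp region on chromosome 18 at 49519901 to 49520100 had 6.54 per the authors' deposited table with an FDR of 0.0795. *MRPS12*, a gene of the small subunit of the mitochondrial ribosome, begins or ends 95 bp past the other end of *SARS2*. *FARS2*, *MARS2*, *NARS2* and *YARS2*, like *EARS2*, had no region under the limit, their lowest FDRs being 0.191, 0.0730, 0.203 and 0.105.

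Setting the enzymes for the same amino acid side by side gives 13 pairs of 1 cytosolic and 1 mitochondrial gene. In 8 pairs both genes had a region under the FDR limit, in 2 only the cytosolic gene (*MARS*, *YARS*), in 2 only the mitochondrial gene (*LARS2*, *WARS2*), and in 1, asparagine, neither. Left out were *FARSA* and *FARSB* with *FARS2*, and *EPRS* with *EARS2* and *PARS2*, which do not match 1 to 1. Of these, *FARSA*, *FARSB*, *EPRS* and *PARS2* had a region under the FDR limit, and *FARS2* and *EARS2* had none. Taken singly, 51.4% of all protein-coding genes had such a region, and no share was worked out for other pairs of genes. *SARS* and *SARS2* were the pair in which both passed in different sets, set 2 for the cytosolic and set 1 for the mitochondrial gene. Tryptophan had the same split by lowest FDR, but there only *WARS2* passed. For histidine and isoleucine the passing region of the mitochondrial gene is also one of a cytosolic member. The histidine pair is among the 8 through 1 and the same region. *HARS2* and *HARS* lie 72 bp apart and share 4 regions, and *IARS2* shares 4 with *EPRS*, from which it is separated by 46976 bp. At the *IARS2* end itself, 453 bp outside, the authors' deposited table gave a set 1 fold change of 2.96 at an FDR of 0.125.

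Near gene ends the compartments differed more in their counts than over the whole window. A region under the FDR limit with its centre within 3000 bp of an end was found at 6 of 20 cytosolic members (*CARS*, *EPRS*, *KARS*, *RARS*, *SARS* and *VARS*, 30.0%) and at 1 of 19 mitochondrial members (*QRSL1*, 5.26%). Over all protein-coding genes this share was 14.4%, and no test was made between the compartments. With regions farther inside the genes counted too, the numbers were 8 cytosolic and 4 mitochondrial members. Without regard to the FDR, 13 cytosolic and 9 mitochondrial members had a region that near, against 36.4% of all genes. Of 99 cytosolic regions, 21 were within 3000 bp of an end, 6 farther inside the gene and 46 between 25000 and 50000 bp outside. Of 88 mitochondrial regions the numbers were 12, 12 and 43. Because strand is missing from the gene table, a gene's start was not distinguished from its end.

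**Figure D4:**
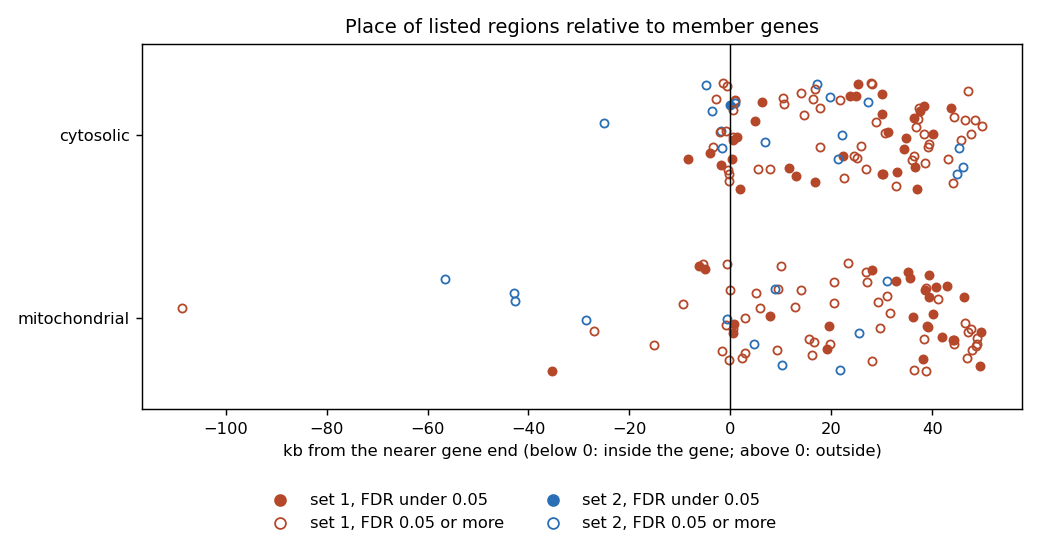
Distance in kb of each region's centre from the nearer end of the member gene, below 0 inside and above 0 outside, for cytosolic (top row) and mitochondrial (bottom row) members. Points are coloured by set and filled where the FDR is under 0.05, and the vertical scatter within a row has no meaning. Filled points near 0 are more frequent in the cytosolic row (6 regions within 3 kb) than in the mitochondrial row (2).

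For most regions the member was not the closest gene. Another protein-coding gene lay nearer to 128 of the 179 regions, and a member was the nearest (or shared that place) for 51. Of these 51, 14 passed the FDR limit and 14 were in set 2, a set 2 share of 27.5%, against 25.5% in the table as a whole. Among the other 128 regions 13 were in set 2. Just inside the distance limit, a *QARS* region 49951 bp away showed a fold change of 2.46 per the authors' deposited table (FDR = 0.124) and a *QRSL1* region at 49676 bp had 3.66. Just outside it, a *QARS* region at 50301 bp had 1.64 per the authors' deposited table (FDR = 0.204) and a *QRSL1* region at 50826 bp had 3.53 (FDR = 0.0293).

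At other genes of tRNA charging and its sensing, regions under the FDR limit were mostly in set 1, as they were in the whole table. Of 32 genes listed for this, 31 matched a gene and 19 had a region under the FDR limit, 18 in set 1 and 1 in set 2. Over all protein-coding genes, 48.9% had such a region in set 1 and 5.06% in set 2. *TARSL2*, a further threonyl-tRNA synthetase, had no listed region. In the scaffold of the multi-synthetase complex, *EEF1E1* had the 1 set 2 region under the limit. It lay 25592 bp outside the gene, at 2.56 per the authors' deposited table (FDR = 0.0138). *AIMP1* and *AIMP2* had 1 set 1 region each, with FDRs of 0.150 and 0.162. Of 7 matched genes for other charging, editing and formylation, 3 had a region under the limit, all in set 1. *DTD1* of that list had 5 regions, 4 of them in set 2, and none passed. Among 8 genes for the delivery of charged tRNA to the ribosome, exchange factors included, 7 had a region under the limit, all in set 1. Over all protein-coding genes the share with such a region was 51.4%. The windows of the 8 delivery genes held from 1 (*EEF1A1*) to 9 (*EEF1D* and *TSFM*) other protein-coding genes, against a median of 3 over all genes. *EEF1G*, a subunit of the exchange factor for elongation factor 1, had 2.15 per the authors' deposited table (FDR = 0.000174), 16001 bp outside the gene. *EEF1A1*, that elongation factor, had 2.21 per the authors' deposited table (FDR = 0.00161), 3227 bp outside the gene. Only *EEF1B2* of this group had no listed region.

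Uncharged tRNA is sensed by the kinase GCN2, the product of *EIF2AK4*, which acts through the transcription factor ATF4, an activator of many synthetase genes. Of 12 genes of this response, 8 had a region under the FDR limit, all in set 1, where the share over all protein-coding genes was 48.9%. *DDIT3* is 1 of the 8, and its region of lowest FDR (0.0253) is the *MBD6* region already counted for *MARS*. The *ATF4* region had 2.80 per the authors' deposited table (FDR = 6.78e-05), on chromosome 5 at 109878001 to 109879800, 4891 bp outside the gene. *GCN1*, a partner of GCN2, had 11 regions under the limit, the lowest FDR being 9.67e-06 at 1.64 per the authors' deposited table, 21965 bp outside the gene. *SESN2*, an ATF4 target that restrains growth signalling, had 3.37 per the authors' deposited table (FDR = 0.000143), 16239 bp outside the gene. *EIF2AK4* itself had 2.87 per the authors' deposited table (FDR = 0.0297), inside the gene. *TRIB3* and *ASNS*, also ATF4 targets, had no region under the limit, their lowest FDRs being 0.0708 and 0.225, both in set 1. Of their listed regions, 3 of 5 at *TRIB3* and 1 of 2 at *ASNS* were in set 2. *IMPACT* and *EIF2S1* of this response had no listed region. Against 51.4% of all protein-coding genes, 19 of the 31 related genes and 27 of 39 members had a region under the limit, with no test of either. The counts are not separate, since *DDIT3* and *MARS* share that region.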

How the data were processed

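The authors deposited 1 table of regions that differed between 3 lactation and 3 dry period ATAC-seq libraries. Per the submitters' processing notes, Bowtie2 2.2.5 and MACS2 were used, with no role given. The differential caller, its windows, the genome build, any Tn5 shift and any duplicate removal are not given. Per the file headers, the table holds a length in bp (another unit than the rest), a signal value, a fold change, a p-value and a Benjamini-Hochberg FDR. The authors' fold change is a linear ratio above 1 in both sets. The deposited signal value is a score equal to that ratio times a constant of 32.0 in set 1 and 20.4 in set 2, and was not used. The p-value and FDR (a q-value) were deposited by the authors and used as they stand. No test was run across libraries, since no column holds 1 library's values, and the p-values reflect at most variation among these libraries, possibly technical.

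Regions were placed with Python 3.11.15 and pandas 2.3.3 against RefSeq genes of ARS1.2, which gave names, lengths, neighbours and distances. Sequence accessions were read as chromosomes 1 to 29 (29978 regions). With the build unstated, this was checked: on 29 of 29 chromosomes, the share of regions at most 1000 bp from a gene end was highest for that chromosome's own genes. Coordinates are the authors', counted from 1. Distances run from a region's centre to the nearer gene end, and the assignment was tested on simulated data. The planned motif search was not made, as no sequence was used.

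The members and lists were chosen with earlier results of these data known. Members are named for a region under an FDR of 0.05, a region inside or within 3000 bp of an end, the largest fold change, a lowest FDR in set 2, or a place next to the distance limit; others named complete a route, pair or complex and were chosen after their values were seen. Alternatives were distances of 3000 and 100000 bp, nearest gene only, the region's edge, FDR limits of 0.01 and 0.1, and leaving out some members. A planned gene of the related lists is not reported here.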

Additional observations from a re-analysis of the deposited data

How the results depend on the processing

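No paired analysis was possible because the table holds no value per library. Of 54 alternative values for 9 results, 36 stayed close to those reported (within 1.5 times, or within the Wilson interval for the set 2 share) and 18 did not. With regions inside the gene or within 3000 bp in place of 50000 bp, there were 51 listed regions, 13 of them under the FDR limit, at 8 cytosolic and 4 mitochondrial members, with a set 2 share of 23.5%. With only regions for which the member is the nearest gene, these were 51, 14, 8 and 5, and 27.5%. With 100000 bp there were 310 listed regions and 90 under the limit. At an FDR limit of 0.01, 28 regions passed, at 9 cytosolic and 8 mitochondrial members. Chosen after the data were seen, leaving out *VARS*, *FARSA* and *AARS2* gave 36 regions under the FDR limit and a set 2 share of 21.1%, and an unadjusted p under 1e-05 in both sets gave 33 regions, among them that of *DARS*. The fewer regions follow from the narrower windows, stricter limits or fewer genes by construction; the cause of the higher set 2 shares was not tested. Depth per library and per region is unknown, and starts of genes could not be told from ends.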
